A study of Homo sapiens with 12 samples.

Results

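Zinc finger genes named *ZNF* with a number were examined in HCT116 cells that carry or lack the *miR-34* genes. The members were chosen by symbol and by level: a mean of at least 10 CPM (a gene's count as a share of its library total, on the usual CPM scale) in at least 1 of 4 groups. Of 472 such symbols among the 60580 listed in each library, 1 further symbol having been left out by the rule, 221 reached this level, 160 of them in all 4 groups, 20 in 3, 16 in 2 and 25 in 1. Since the level chose the members, a gene that entered through 1, 2 or 3 groups had to be higher there than in the rest. Counts over the 221 genes are given as a description beside those over the 160. Just inside the limit were *ZNF765* (10.1 CPM in its highest group), *ZNF559* (10.1) and *ZNF211* (10.2), and just outside were *ZNF35* (9.80), *ZNF266* (9.70) and *ZNF18* (9.54). All 221 members were tested, and the lowest count of any member in any library was 71.

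*WT* cells and cells without the *miR-34a/b/c* genes (*KO*) made up 4 groups, each genotype having been treated for 48 h with DMSO, the solvent, or with 5-fluorouracil (5-FU), a pyrimidine analog that blocks thymidylate synthesis and is incorporated into RNA. HCT116 is a line grown from a human colon carcinoma. Both genotypes came from single-cell clones that had received a Cas9 plasmid, with guides on either side of the miRNA precursors for *KO* and without a guide for *WT*, and the sources do not say whether the libraries of a group are different clones. A difference between genotypes can therefore not be told apart from a difference between clones. Of 12 labelled libraries, the file of *WT* 5-FU replicate 1 held the same counts as *WT* DMSO replicate 3 and was left out, which leaves 2 libraries of *WT* cells treated with 5-FU and 3 in each other group.

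C2H2 zinc finger proteins read DNA through tandem fingers, each of which holds a zinc ion between a pair of cysteines and a pair of histidines and contacts a few bases. Many carry an N-terminal KRAB box, which binds the corepressor TRIM28 (KAP1) and, through it, the histone methyltransferase SETDB1 and HP1 proteins. KRAB zinc finger genes multiplied in gene clusters, above all on chromosome 19, and many of their products bind retroelements. Members without a KRAB box are a mixed group of activators, corepressor partners and proteins that bind RNA or ribosomes.

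The *miR-34* family was deleted in the *KO* cells, so that mature sequences are shown with the seed (bases 2 to 8) in capitals, as listed by RefSeq on GRCh38. The seed of *miR-34b-5p* is that of *miR-34a-5p* moved by 1 base, and *miR-34c-5p* is the remaining member.
miR-34a-5p (chr1:9151735-9151756, minus strand): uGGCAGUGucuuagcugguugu
miR-34b-5p (chr11:111512950-111512972, plus strand): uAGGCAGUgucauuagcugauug

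The word that pairs with the *miR-34a-5p* seed, CACTGCC, was searched on the transcribed strand of the annotated 3′ UTR of each gene. It was found in 35 of the 220 members with a known transcript (15.9%), beside 3052 of 19516 protein-coding genes (15.6%), where the median 3′ UTR measured 1722 bases in the members and 1066 in all. Among members with such a word, 4 were called between genotypes under DMSO or 5-FU. *ZNF276*, *ZNF483* and *ZNF579* were higher in *KO* cells, and the fourth, *ZNF16*, which is not shown, was lower under 5-FU (−0.68). The words in the 3 are shown with the match in capitals, 5′ to 3′ on the transcript.
ZNF276 (chr16:89739426-89739447, plus strand): gggggtctgggaaaCACTGCCc
ZNF483 (chr9:111551542-111551563, plus strand): agattactggtgcaCACTGCCa
ZNF579 (chr19:55577282-55577303, minus strand): gcgattatcctcacCACTGCCc

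Total counts per library ranged from 22831415 to 39064210 (median 25698417). The genes *MIR34A*, *MIR34B* and *MIR34C* had 0 counts in every one of the 11 libraries, *WT* included, so that the counts do not check the deletion. *MIR34AHG*, the host gene of *miR-34a*, had 101 to 185 counts in *WT* and 514 to 675 in *KO* libraries under DMSO. The epithelial markers *KRT8*, *KRT18*, *KRT19*, *EPCAM*, *CDH1* and *CDX2* were at 19.3 CPM or more in every library, whereas *VIL1* reached no more than 2.32 CPM and *CDX1* was at 0. Of 8 markers of blood, endothelium and fibroblasts, *COL1A1* (20.7 to 74.0 CPM) and *VWF* (0.917 to 6.04) were the 2 detected above 1 CPM, and the other 6 reached no more than 0.308 CPM. The mean level of *COL1A1* was 24.25 CPM in *WT* DMSO, 47.3 in *KO* DMSO, 54.3 in *WT* 5-FU and 73.4 in *KO* 5-FU libraries, and its part in the results was not tested.

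A KRAB box was found by a sequence profile in 112 of the 220 members matched to the annotation, and in 108 none was found. The number of fingers ranged from 0 to 36 with a median of 9, which was 11 in the KRAB members and 7 in the others. Chromosome 19 held 72 members, chromosome 7 held 23, chromosome 16 held 21, chromosome 1 held 13 and chromosome 8 held 11. Of the 220, 161 shared no exact stretch of 100 bases with a transcript of another gene, and in 10 more than 20% of such stretches were shared. Among genes named here, these are *ZNF564* (84.2%), *ZNF410* (80.5%), *ZNF395* (41.2%) and *ZNF512* (32.0%), and their counts are uncertain.

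The 5 highest members carry no KRAB box. *ZNF664* had a mean of 252 CPM (58.5 CPM per kb of transcript), followed by *ZNF207* (188 CPM, 13.7 per kb), *ZNF146* (156 CPM, 46.6 per kb), *ZNF24* (137 CPM, 21.8 per kb) and *ZNF638* (130 CPM, 19.96 per kb). *ZNF207* (BuGZ) binds the checkpoint protein BUB3 and takes it to kinetochores, *ZNF24* carries a SCAN domain, and *ZNF638* binds RNA and takes part in silencing of unintegrated retroviral DNA. Per kb of transcript, *ZNF664* and *ZNF146* stood above *ZNF706* (35.9), and *ZNF207* stood beside *ZNF121* (13.2) and *ZNF217* (12.9). None of the 10 highest members was called in any of the 5 comparisons (background 3.42% to 18.5% by comparison and direction). *ZNF146* had 190.0, 179 and 189 CPM in *WT* DMSO and 115 and 142 in *WT* 5-FU libraries, a log2 fold change of −0.57 ± 0.07 (SE, FDR = 1.8e-06), just under the fold limit.

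The summed level of the 221 members was 6288 ± 79.1 CPM in *WT* DMSO, 6422 ± 101 in *KO* DMSO, 6492 ± 248 in *WT* 5-FU (n = 2) and 7128 ± 6.3 in *KO* 5-FU libraries (mean ± SD, n = 3 otherwise). The 3 *KO* 5-FU libraries (7123 to 7135 CPM) lay above the other 8, of which the highest had 6667 CPM. These sums include members admitted through *KO* 5-FU libraries alone, such as *ZNF888*, *ZNF703* and *ZNF699*, which had to be higher there. No sum over the 160 members at the level in all 4 groups was made. Since CPM are shares of a library, a change in the RNA of other genes and a change in that of the members cannot be told apart, and in bulk RNA neither can fewer expressing cells and less RNA per cell.

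The calls of the members were set beside those of all genes. A call required an FDR < 0.05 (edgeR quasi-likelihood test, Benjamini-Hochberg adjustment over 16123 genes) and a fold change above 1.5. Between genotypes under DMSO, 10 members were higher and 5 lower in *KO* cells (4.52% and 2.26%), beside 9.10% and 4.97% of all genes. After 5-FU, 29 rose and 16 fell in *WT* cells (13.1% and 7.24%), beside 18.5% and 9.38%. In *KO* cells 24 rose and 6 fell (10.9% and 2.71%), beside 13.3% and 12.0%. Between genotypes under 5-FU, 16 were higher and 10 lower in *KO* (7.24% and 4.52%), beside 7.58% and 10.6%. For the difference between responses (that of *KO* minus that of *WT*), 12 were called higher and 6 lower (5.43% and 2.71%), beside 3.42% and 6.66%.

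Level matters for this reading, since 10894 of the tested genes reached 10 CPM in a group. Of these, 10.4% rose and 10.6% fell after 5-FU in *KO* cells, beside 10.9% and 2.71% of the members. In *WT* cells 12.6% rose and 10.4% fell, beside 13.1% and 7.24%. Between genotypes under DMSO, 6.22% were higher and 3.71% lower in *KO*, beside 4.52% and 2.26%. Under 5-FU these were 6.64% and 6.88%, beside 7.24% and 4.52%. For the difference between responses they were 4.07% and 5.1%, beside 5.43% and 2.71%. Among the 160 members at the level in all 4 groups, 13 rose and 4 fell after 5-FU in *KO* cells, and 17 rose and 7 fell in *WT* cells. Of the 160, 4 and 4 differed between genotypes under DMSO, 4 and 5 under 5-FU, and 4 and 3 between responses. Over all 5 comparisons, 147 members were called in none and 74 in at least 1. The median log2 fold change of the members ranged from 0.00 (difference between responses) to 0.07 (genotypes under 5-FU).

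**Figure D1:**
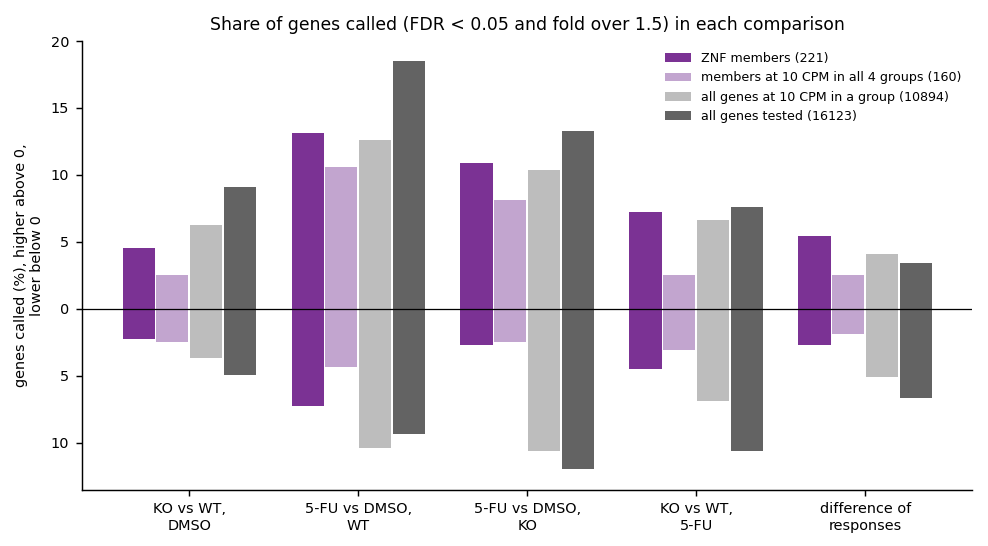
Share of genes called (%, vertical axis, higher above 0 and lower below 0) in the 5 comparisons (horizontal axis) for the 221 members, the 160 members at 10 CPM in all 4 groups, 10894 genes at 10 CPM in a group and all 16123 genes tested. The bars for members called lower after 5-FU in *KO* cells (2.71%) stand against 12.0% of all genes.

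Between genotypes under DMSO, the members called higher in *KO* cells included *ZNF211* and *ZNF608*. *ZNF211*, a KRAB gene at chr19:57630395-57644041, had 2.50, 3.07 and 2.81 CPM in *WT* and 5.63, 5.64 and 6.61 CPM in *KO* libraries. The groups did not overlap, and the gene was 2.11-fold higher in *KO* (log2 fold change 1.08 ± 0.13, FDR = 7.2e-06). *ZNF211* reached 10 CPM only in *KO* 5-FU libraries and *ZNF608* only in *KO* DMSO and *WT* 5-FU libraries, so that the rule draws on values of these comparisons. *ZNF608*, the paralog of *ZNF609*, had 6.86, 8.001 and 6.81 CPM in *WT* and 15.5, 14.3 and 15.2 CPM in *KO* libraries, 2.05-fold higher without overlap (1.04 ± 0.10, FDR = 2.9e-07). *ZNF888* (0.89 ± 0.13) and *ZNF77* (0.87 ± 0.09), which carry a KRAB box, and *ZNF469* (0.85 ± 0.13), mutated in brittle cornea syndrome, came next. Of these, *ZNF77* reached 10 CPM only in *KO* libraries and *ZNF888* only in *KO* 5-FU libraries, so that the rule favored this direction. *ZNF579* (0.75 ± 0.09), *ZNF467* (0.66 ± 0.10), *ZNF276* (0.61 ± 0.06), *ZNF425* (0.61 ± 0.11) and *ZNF224* (0.59 ± 0.09), the last of which was named after its value was seen, made up the 10.

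The 5 members lower in *KO* cells under DMSO included a telomere factor. *ZNF827*, which brings the NuRD complex to telomeres, had 41.2, 41.8 and 43.97 CPM in *WT* and 24.1, 23.4 and 20.9 CPM in *KO* libraries (log2 fold change −0.92 ± 0.07, FDR = 2.3e-08). *ZNF695*, a KRAB gene, had 12.4, 13.5 and 11.04 CPM in *WT* and 7.46, 6.73 and 5.90 CPM in *KO* libraries (−0.90 ± 0.14, FDR = 5.0e-05). In both genes all *WT* libraries lay above all *KO* libraries. *ZNF83* (−0.77 ± 0.11), *ZNF704* (−0.64 ± 0.06) and *ZNF7* (−0.61 ± 0.07) followed. The calls of *ZNF276* and *ZNF7* were lost without *WT* DMSO replicate 2 (0.58 and −0.53), and that of *ZNF425* without *WT* DMSO replicate 1 or *KO* DMSO replicate 1 (0.57 each). Those of *ZNF276* and *ZNF425* were also lost without a filter (0.583 and 0.581) and with DESeq2 (0.58 and 0.579). Of the exon bases of *ZNF224*, 48.6% overlap *ZNF225-AS1* on the opposite strand.

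Members with the *miR-34a* word were then set beside those without it. Of the 35 with the word, 2 were higher and 0 lower in *KO* cells under DMSO by edgeR (background 9.10% and 4.97%), and their median log2 fold change was 0.01, beside 0.04 in the 185 without it, of which 8 were higher and 5 lower. Under 5-FU, 1 was higher and 1 lower with the word (median 0.07) and 15 and 9 without it (median 0.07). *ZNF276* had 43.95, 38.5 and 40.2 CPM in *WT* and 63.4, 62.5 and 64.1 CPM in *KO* DMSO libraries, and *ZNF579* had 37.2, 35.8 and 37.6 against 58.6, 64.4 and 65.4 CPM. Neither pair of groups overlapped. Of the exon bases of *ZNF276*, 28.7% overlap *FANCA* on the opposite strand, and whether counting used strand is not given in the sources used here, so that reads of the pair cannot be told apart. *ZNF483*, a KRAB and SCAN gene, had 7.78 and 10.6 CPM in *WT* and 17.2, 16.7 and 19.1 CPM in *KO* 5-FU libraries (0.88 ± 0.12, FDR = 2.5e-05), while under DMSO its groups lay at 10.7 to 13.1 and 13.1 to 15.5 CPM.

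After 5-FU, KRAB genes of the p53-linked list were among the rises in both genotypes. p53 is the transcription factor that responds to DNA damage and nucleotide stress. *ZNF79* (chr9:127424374-127445372) had 5.17, 4.08 and 4.85 CPM in *WT* DMSO and 16.7 and 15.7 CPM in *WT* 5-FU libraries, and 6.04, 6.65 and 7.64 CPM in *KO* DMSO and 28.3, 27.6 and 26.7 CPM in *KO* 5-FU libraries. Treated and untreated libraries were apart in both genotypes, with a 3.35-fold rise in *WT* (log2 fold change 1.75 ± 0.11, FDR = 1.1e-09) and a 3.80-fold rise in *KO* cells (1.93 ± 0.10, FDR = 6.6e-11). *ZNF79* reached 10 CPM only in the 5-FU groups of both genotypes, so that the rule favored a rise. The difference between responses was not called (0.18 ± 0.15, FDR = 0.4), and under 5-FU the gene was 1.61-fold higher in *KO* cells (0.68 ± 0.10, FDR = 3.1e-05). Under DMSO its log2 fold change between genotypes was 0.505 and was not called. *ZNF79* lies just before the band 9q34, whose 193 other tested genes had medians of 0.604 under DMSO and 0.485 under 5-FU between genotypes. Whether its position enters its difference was not tested.

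*ZNF561* (chr19:9604680-9621236) rose from 24.1 ± 0.850 to 50.7 ± 7.03 CPM in *WT* (n = 3 and 2) and from 28.8 ± 1.83 to 71.2 ± 0.607 CPM in *KO* cells, by 2.05-fold and 2.33-fold. *ZNF337* (chr20:25673195-25696853) had 23.9 ± 0.425 CPM (mean ± SD, n = 3) in *WT* DMSO, 37.1 and 44.6 CPM in *WT* 5-FU, 27.7, 31.4 and 27.9 CPM in *KO* DMSO and 68.5, 66.8 and 65.5 CPM in *KO* 5-FU libraries. Its rise was 1.67-fold in *WT* and 2.17-fold in *KO* cells, and its higher level in *KO* under 5-FU (0.64 ± 0.08, FDR = 9.3e-06) lost its call without *WT* 5-FU replicate 2 (0.52). The p53-linked list held 5 genes and was written with earlier results of these data known, so that counts over it are a description. *ZNF420* did not reach the level of the rule. Of the 4 p53-linked members, these 3 rose in both genotypes (background 18.5% and 13.3%). The remaining one, *ZNF668*, known to stabilize p53, had log2 fold changes of 0.33 ± 0.12 in *WT* and −0.06 ± 0.11 in *KO* cells, and 53.4% of its exon bases overlap another gene.

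Other large rises concerned genes with and without a KRAB box. *ZNF219*, a cofactor of SOX9, had 17.1, 18.1 and 19.6 CPM in *WT* DMSO against 85.7 and 62.2 CPM in *WT* 5-FU libraries, and 27.4, 27.7 and 26.2 CPM in *KO* DMSO against 85.9, 90.04 and 91.01 CPM in *KO* 5-FU libraries. That is a 3.96-fold rise in *WT* (1.99 ± 0.10, FDR = 1.2e-10), the largest among the members in that comparison, and a 3.09-fold rise in *KO* cells (1.63 ± 0.09). *ZNF425*, a KRAB gene with 19 fingers, rose from 3.35 ± 0.265 to 12.2 ± 1.02 CPM in *WT* (3.54-fold) and from 5.22 ± 0.313 to 13.8 ± 0.7503 CPM in *KO* cells (2.48-fold). *ZNF425* too reached 10 CPM only in the 5-FU groups, so that the rule favored a rise. *ZNF600* (chr19:52749942-52786807), a KRAB gene with 18 fingers, had 11.9, 11.4 and 10.5 CPM in *WT* DMSO, 29.5 and 31.3 CPM in *WT* 5-FU, 8.88, 9.24 and 9.03 CPM in *KO* DMSO and 36.4, 36.9 and 34.2 CPM in *KO* 5-FU libraries. It rose 2.65-fold in *WT* and 3.73-fold in *KO* cells, and the difference between responses was 0.50 ± 0.11 (FDR = 0.0038), under the fold limit.

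Of the members that rose, 14 did so in both genotypes, which is 48.3% of the 29 in *WT* and 58.3% of the 24 in *KO* cells. Of those that fell, 4 did so in both (25% of 16 and 66.7% of 6), and 0 were called in opposite directions by edgeR. The same overlap was not counted over all genes tested, so that whether the members differ from other genes in this cannot be told. *ZNF654*, *ZNF707* and *ZNF211* also rose in both. *ZNF707* had 9.74, 9.18 and 9.47 CPM in *WT* DMSO and 24.7 and 20.3 CPM in *WT* 5-FU libraries (1.22 ± 0.10) and rose by 0.88 ± 0.09 on the log2 scale in *KO* cells. Its *WT* DMSO group lay under the level of the rule, which favored the rise in *WT* cells. The number that fell in *WT* cells depended on the 2 libraries under 5-FU: without replicate 3 it was 30 and without replicate 2 it was 12, while the number that rose was 34 and 30.

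**Figure D2:**
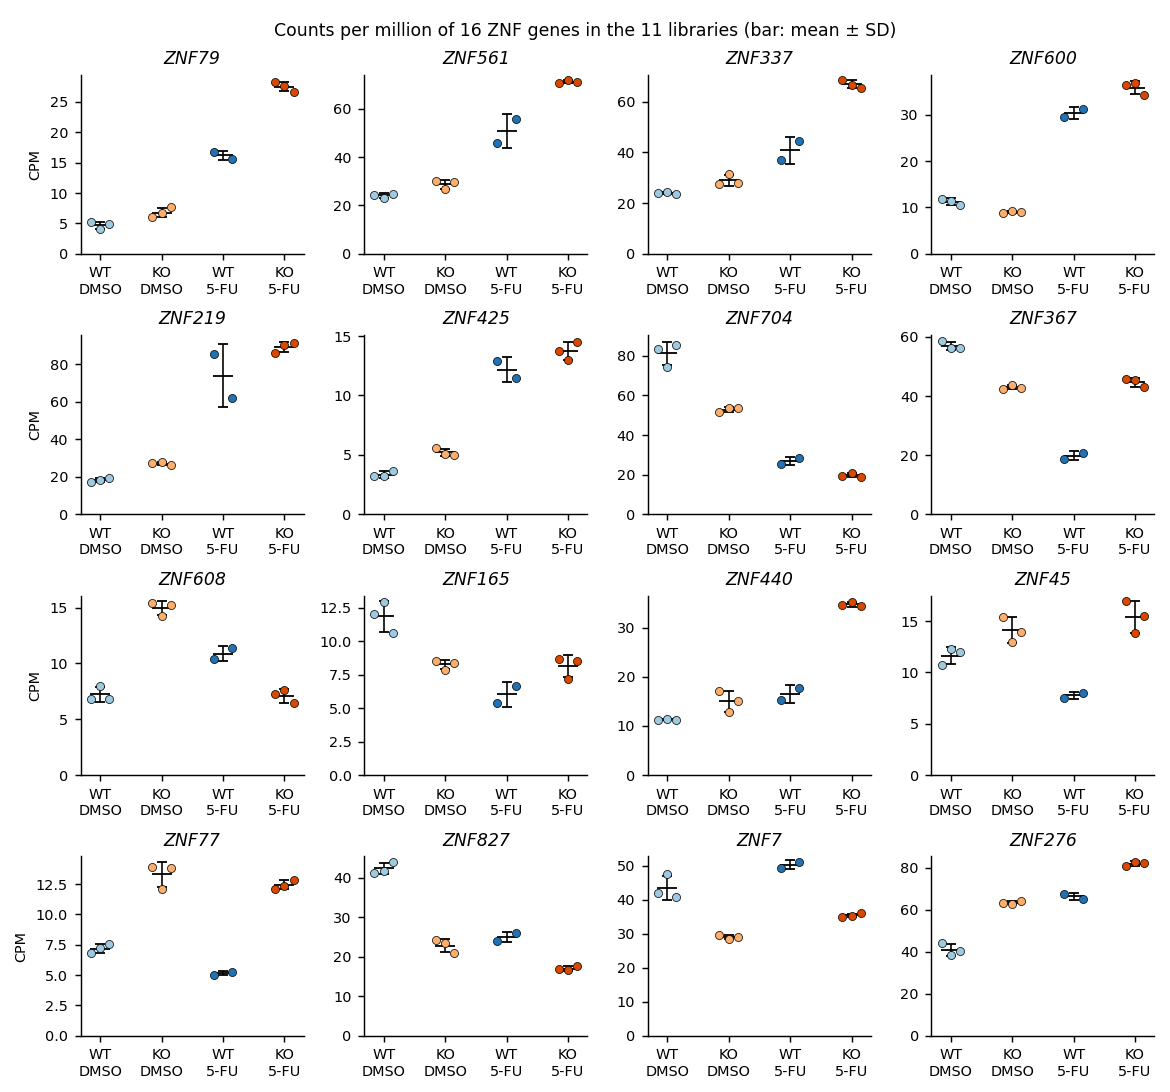
CPM (vertical axes from 0) of 16 members in the 4 groups (horizontal axes, points are libraries, bars are mean ± SD, n = 3 and n = 2 for WT 5-FU). *ZNF79*, *ZNF600* and *ZNF219* rose after 5-FU in both genotypes and *ZNF704* fell in both, while *ZNF367* fell in *WT* cells and was not called in *KO* cells.

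The members that fell in both genotypes were *ZNF704*, *ZNF581*, *ZNF22* and *ZNF138*. *ZNF704* (chr8:80628451-80874781), a relative of *ZNF395*, had 83.7, 74.6 and 85.4 CPM in *WT* DMSO, 25.6 and 28.3 CPM in *WT* 5-FU, 51.5, 53.6 and 53.6 CPM in *KO* DMSO and 19.6, 20.9 and 19.1 CPM in *KO* 5-FU libraries. Treated and untreated libraries did not overlap in either genotype. The log2 fold change after 5-FU was −1.63 ± 0.07 in *WT* (FDR = 2.2e-11) and −1.50 ± 0.07 in *KO* cells (FDR = 1.7e-11), and the difference between responses was 0.13 ± 0.10 (FDR = 0.36). *ZNF395* itself was called in *KO* cells (−0.74 ± 0.06, FDR = 2.5e-08) and had −0.55 ± 0.07 in *WT* cells (FDR = 2.4e-06), with a difference of −0.18 ± 0.09 (FDR = 0.14). *ZNF581* had −1.004 in *KO* and −0.68 in *WT* cells, and *ZNF22* had −0.72 and −0.85. The call of *ZNF138* (−0.62 in *WT* and −0.62 in *KO* cells) was lost without *WT* DMSO replicate 3 (−0.58) or *WT* 5-FU replicate 2 (−0.56) in *WT* cells and without *KO* DMSO replicate 1 (−0.51) or *KO* 5-FU replicate 1 (−0.58) in *KO* cells.

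Further falls in *WT* cells were *ZNF367* (−1.56 ± 0.07), *ZNF165* (−1.01 ± 0.13), a cancer-testis antigen, *ZNF700* (−0.92 ± 0.11), *ZNF92* (−0.92 ± 0.12), *ZNF680* (−0.83 ± 0.12) and *ZNF827* (−0.80 ± 0.08). *ZNF92* had 17.9, 18.5 and 17.9 CPM under DMSO and 8.27 and 11.5 CPM under 5-FU, and in *KO* cells its log2 fold change was −0.39 ± 0.10 (FDR = 0.0035). The difference between its responses was 0.52 ± 0.16 (FDR = 0.022) and was not called. *ZNF827* was at 24.01 and 25.9 CPM in *WT* 5-FU libraries, beside 20.9 to 24.1 CPM in *KO* DMSO and 16.9, 16.5 and 17.6 CPM in *KO* 5-FU libraries.

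The response to 5-FU differed between genotypes for 18 members. *ZNF367* (chr9:96385941-96418370), described as an activator of erythroid genes, had 58.6, 56.1 and 56.2 CPM in *WT* DMSO and 18.8 and 20.9 CPM in *WT* 5-FU libraries, and 42.5, 43.8 and 42.6 CPM in *KO* DMSO and 45.7, 45.5 and 43.01 CPM in *KO* 5-FU libraries. It fell 2.95-fold in *WT* cells and had a log2 fold change of −0.03 ± 0.06 in *KO* cells, a difference of 1.53 ± 0.09 (FDR = 2.7e-08) that was 1.461 to 1.597 with each library left out in turn. *ZNF165* reached 10 CPM only in *WT* DMSO libraries, the value its fall starts from. It went from 11.99, 12.9 and 10.6 to 5.38 and 6.67 CPM in *WT* and from 8.54, 7.86 and 8.35 to 8.68, 7.20 and 8.50 CPM in *KO* cells (difference 0.90 ± 0.17, FDR = 0.0012). In these 2 genes no KRAB box was found, whereas the other 10 called higher carry one.

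*ZNF608* (chr5:124636913-124748807) had values of opposite sign. Its CPM went from 6.86, 8.001 and 6.81 to 10.4 and 11.4 in *WT* cells, a log2 fold change of 0.56 ± 0.11 (FDR = 0.00027) just under the fold limit. In *KO* cells they went from 15.5, 14.3 and 15.2 to 7.23, 7.63 and 6.44, a log2 fold change of −1.16 ± 0.10 (FDR = 3.8e-08). *KO* was thus above *WT* under DMSO and below it under 5-FU (−0.69 ± 0.11, FDR = 7.5e-05), and the responses differed by −1.72 ± 0.15 (FDR = 7.2e-07).

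*ZNF467* was higher in *KO* cells under DMSO (21.8, 21.7 and 22.7 against 13.5, 12.6 and 14.9 CPM) and had 20.8 and 15.6 CPM in *WT* and 15.8, 15.4 and 16.3 CPM in *KO* 5-FU libraries (difference between responses −0.95 ± 0.14, FDR = 0.0002). *ZNF516*, a partner of the CtBP and LSD1 corepressors, rose in *WT* cells (29.8, 28.2 and 32.8 to 53.04 and 51.6 CPM) and had 36.2, 36.7 and 38.7 CPM in *KO* 5-FU libraries beside 33.3, 35.96 and 33.7 under DMSO (difference −0.72 ± 0.10). In *ZNF70* (difference −0.84 ± 0.13) and *ZNF117* (−0.87 ± 0.18) a rise in *WT* cells (0.76 ± 0.10 and 0.78 ± 0.13) stood beside −0.08 ± 0.09 and −0.09 ± 0.13 in *KO* cells, and both reached 10 CPM only in *WT* 5-FU libraries. The rise of *ZNF117* in *WT* lost its call without *WT* 5-FU replicate 3 (0.55). *ZNF428* completed the 6 (−0.60 ± 0.10), and its call was lost with TMM factors (−0.541), without a filter (−0.57), with DESeq2 (−0.522) and without each of 3 libraries (−0.57 to −0.50).

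Under 5-FU, the members higher in *KO* than in *WT* cells were headed by *ZNF77* (1.20 ± 0.10), *ZNF367* (1.10 ± 0.07), *ZNF888* (1.08 ± 0.13) and *ZNF440* (1.01 ± 0.10). *ZNF77*, a KRAB gene with 12 fingers at chr19:2933218-2944971, had 6.79, 7.20 and 7.55 CPM in *WT* DMSO, 5.04 and 5.27 CPM in *WT* 5-FU, 13.9, 12.1 and 13.9 CPM in *KO* DMSO and 12.1, 12.4 and 12.9 CPM in *KO* 5-FU libraries. It separated the genotypes under either treatment, and the difference between responses was not called (0.33 ± 0.14, FDR = 0.084). *ZNF440* had 11.2, 11.4 and 11.3 CPM in *WT* DMSO, 15.2 and 17.8 CPM in *WT* 5-FU, 17.1, 12.8 and 15.2 CPM in *KO* DMSO and 34.6, 35.3 and 34.5 CPM in *KO* 5-FU libraries. *ZNF703* (0.92 ± 0.15), a breast cancer oncogene, *ZNF45* (0.91 ± 0.11) and *ZNF699* (0.91 ± 0.15) followed. *ZNF77* reached 10 CPM only in *KO* libraries, under either treatment. *ZNF888*, *ZNF703* and *ZNF699* did so only in *KO* 5-FU libraries. For these genes the rule favored this direction.

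The 10 lower in *KO* than in *WT* cells under 5-FU were *ZNF517* (−0.92 ± 0.14), *ZNF695* (−0.78 ± 0.15), *ZNF117* (−0.77 ± 0.13), *ZNF512* (−0.75 ± 0.07), *ZNF608*, *ZNF16* (−0.68 ± 0.12), *ZNF83* (−0.67 ± 0.12), *ZNF827* (−0.63 ± 0.08), *ZNF277* (−0.60 ± 0.10), named after its value was seen, and *ZNF7* (−0.59 ± 0.07). *ZNF517* and *ZNF117* reached 10 CPM only in *WT* 5-FU libraries. The call of *ZNF7*, at the fold limit, was lost with TMM factors (−0.544), without a filter (−0.579), with DESeq2 (−0.534), with the replicate block by titles (−0.575) or headers (−0.573) and without each of 5 libraries: *WT* DMSO replicate 1 (−0.585) or 3 (−0.584), *WT* 5-FU replicate 3 (−0.569) and *KO* 5-FU replicate 1 (−0.577) or 2 (−0.581). That of *ZNF827* was lost with DESeq2 (−0.582). *ZNF512*, whose counts are uncertain for the stretches it shares, went from 41.2, 43.4 and 40.5 to 74.2 and 80.4 CPM in *WT* and from 39.9, 34.03 and 35.5 to 48.4, 46.1 and 50.8 CPM in *KO* cells. *ZNF117* and *ZNF83* lost their calls without *WT* 5-FU replicate 3 (−0.54 and −0.47). With DESeq2 in place of edgeR, 21 members were higher and 7 lower in this comparison, and 18 and 5 for the difference between responses. Without *WT* 5-FU replicate 3, the counts were 25 and 9, and 22 and 11 for the difference, which became 7 and 5 without *WT* 5-FU replicate 2.

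Members with and without a KRAB box are set side by side here as counts, with no test between the sets. After 5-FU in *KO* cells, 18 of 112 KRAB members rose and 1 fell, beside 6 and 5 of the 108 others, with medians of 0.10 and −0.04 (background 13.3% and 12.0%). Among members at the level in all 4 groups, 8 of 68 with the box rose and 0 fell by edgeR, beside 5 and 4 of the 92 without. In *WT* cells 16 rose and 8 fell among KRAB members, beside 13 and 8 among the others (background 18.5% and 9.38%), and 7 and 1 of the 68 beside 10 and 6 of the 92. Between genotypes under 5-FU, 11 KRAB members were higher and 3 lower in *KO* cells (others 5 and 7, medians 0.15 and −0.01, background 7.58% and 10.6%). At the level in all 4 groups these were 3 and 1 of 68 and 1 and 4 of 92, with medians of 0.081 and −0.033. Under DMSO, 5 KRAB members were higher and 2 lower (others 5 and 3, background 9.10% and 4.97%), and 1 and 1 of the 68 beside 3 and 3 of the 92. The difference between responses was called higher in 10 and lower in 0 KRAB members by edgeR, and in 2 and 6 of the others (background 3.42% and 6.66%), and by FDR alone in 25 and 4 KRAB members and 7 and 14 others. DESeq2 likewise called 0 KRAB members lower. At the level in all 4 groups, edgeR called 3 and 0 of 68 with the box and 1 and 3 of 92 without.

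The counts of the difference between responses turned on the 2 *WT* 5-FU libraries. Without *WT* 5-FU replicate 2, 1 KRAB member and 6 others were called higher, and without *WT* 5-FU replicate 3 it was 17 and 5. Of the 12 members called higher, 9 lost the call without replicate 2, and *ZNF367* and *ZNF165*, the latter admitted by its *WT* DMSO level alone, held it with each of the 11 libraries left out. The median KRAB member lay at −0.03 relative to its *WT* DMSO mean on the log2 scale in *WT* 5-FU replicate 2 and at 0.13 in replicate 3, while the median other member lay at 0.12 and 0.03. In the 3 *KO* 5-FU libraries the KRAB median was 0.25 to 0.28 and the other median 0.11 to 0.14. The summed CPM of the KRAB members was 2022 and 2209 in *WT* 5-FU and 2447 to 2488 in *KO* 5-FU libraries, without overlap, beside 1893 to 1917 in *WT* DMSO and 1966 to 2035 in *KO* DMSO libraries. The rule enters these sums and medians, since a gene admitted through 1 group had to be higher there. The level was reached in all 4 groups by 68 of the 112 KRAB members and 92 of the 108 others. Over the 68 and the 92, the median difference between responses was 0.029 and −0.067, beside 0.078 and −0.058 in the full sets. What set the 2 *WT* 5-FU libraries apart was not tested.

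Across the 220 genes, which are counted in the same libraries and are not independent replicates, Spearman's rho between the number of fingers and the log2 fold change was −0.02 after 5-FU in *WT* cells, 0.10 after 5-FU in *KO* cells and 0.17 for the difference between responses. After 5-FU in *KO* cells, 5 of the 45 members with 0 to 4 fingers fell and 1 of the 70 with 5 to 9. The falls were 0 of the 66 with 10 to 14 and 0 of the 39 with 15 or more (edgeR, background 12.0%). In *WT* cells 4, 3, 6 and 3 members of these classes fell (background 9.38%). Rises in the same order were 3, 8, 7 and 6 in *KO* cells (background 13.3%) and 5, 10, 10 and 4 in *WT* cells (background 18.5%).

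Neighbors were compared next. Members no more than 500000 bases apart form 11 clusters of at least 4, with 85 members. In the cluster at chr19:11559374-11950773 (*ZNF627*, *ZNF823*, *ZNF440* and *ZNF700*, all KRAB genes), the differences between responses ranged from 0.12 to 0.74. Of the 4 members, 3 were called higher (background 3.42%). The 3 other tested genes between them had a median of 0.65. *ZNF823*, which reached 10 CPM only in *KO* 5-FU libraries, had 10.4, 9.43 and 9.56 CPM in *WT* DMSO and 5.99 and 7.80 CPM in *WT* 5-FU libraries, and 9.67, 9.78 and 9.12 against 11.7, 9.88 and 10.9 CPM in *KO* libraries. *ZNF700* fell in *WT* cells from 15.2, 17.1 and 15.8 to 7.42 and 10.1 CPM and had 13.7, 13.5 and 12.8 CPM in *KO* 5-FU beside 13.9, 13.96 and 14.9 CPM in *KO* DMSO libraries. The 3 calls were lost without *WT* 5-FU replicate 2, with values of 0.47 for *ZNF823*, 0.52 for *ZNF440* and 0.53 for *ZNF700*.

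In the cluster at chr7:64519878-65401136, 4 of 6 members fell in *WT* cells after 5-FU (background 9.38%). These were *ZNF680*, *ZNF138*, *ZNF273* and *ZNF92*, all with a KRAB box, while *ZNF117*, in which none was found, rose (background 18.5%). *ZNF138* and *ZNF273* reached 10 CPM only in *WT* DMSO and *ZNF117* only in *WT* 5-FU libraries, so that the rule favored these directions. The median of the cluster was −0.69 in *WT* and −0.24 in *KO* cells, where the 1 other tested gene between its members had 0.92 and 0.03. For the difference between responses, the cluster had a median of 0.395 and that other gene −0.882, beside −0.868 in *ZNF117*. Of the exon bases of *ZNF117*, 7.5% overlap *ERV3-1* on the same strand. In the cluster at chr7:149069641-149867479, all 10 members had positive values in *WT* cells (0.21 to 1.82), of which 3 were called (background 18.5%). In *KO* cells 8 of 10 were positive and 3 were called higher (background 13.3%). The cluster at chr19:52113091-53461862 held *ZNF600*, *ZNF888* and *ZNF83* among its 12 members. Of these, 3 rose and 0 fell in *WT* cells by edgeR (background 18.5% and 9.38%), and 4 rose and 0 fell in *KO* cells (background 13.3% and 12.0%). The members had medians of 0.32 and 0.29 after 5-FU in *WT* and *KO* cells, beside 0.43 and 0.46 in the 11 other tested genes between them. In the cluster at chr19:55476617-56160893, 0 of 8 members carry a KRAB box. The differences between responses ranged there from −0.47 to −0.01 with 0 called higher and 0 lower (edgeR, background 3.42% and 6.66%). Their median was −0.18 in the members and −0.19 in the 11 other tested genes between them. All 13 members at chr19:57191500-58475436 carry the box. After 5-FU in *KO* cells, 12 of them had positive values and 2 were called higher (background 13.3%). The median was 0.287 in the members and 0.265 in the 23 other tested genes between them.

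All 7 members of 8q24 had values below 0 for *KO* against *WT* cells, under DMSO (median −0.43) and under 5-FU (median −0.58). The 137 other tested genes of the band had medians of −0.60 and −0.78, with 92.7% and 97.1% of values below 0. *ZNF7* had 42.1, 47.5 and 40.9 CPM in *WT* and 29.6, 28.5 and 29.1 CPM in *KO* libraries under DMSO, and 49.4 and 51.2 against 35.02, 35.2 and 36 CPM under 5-FU. *ZNF623* (−0.49 ± 0.07 and −0.58 ± 0.07), *ZNF696* (−0.48 ± 0.08 and −0.57 ± 0.09) and *ZNF251* (−0.13 ± 0.07 and −0.33 ± 0.08) were not called. *ZNF517*, at 11.7 and 9.30 CPM in *WT* and 5.44, 6.62 and 5.56 CPM in *KO* 5-FU libraries, and *ZNF16*, at 11.03 and 10.6 against 6.52, 6.93 and 7.93 CPM, were called under 5-FU. The bands 2q37 and 9q34 hold 0 members, and their 80 and 193 other tested genes had medians of 0.91 and 0.60 between genotypes under DMSO.

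Of 8 members that act on RNA or ribosomes, 0 were called in any of the 5 comparisons by edgeR (background 3.42% to 18.5% by comparison and direction), while 1 to 5 of the 8 had an unadjusted p under 0.05. *ZNF598*, the ubiquitin ligase that marks collided ribosomes, had 61.2, 61.5 and 64.7 CPM in *WT* DMSO and 103 and 81.5 CPM in *WT* 5-FU libraries (0.53 ± 0.08, FDR = 3.5e-05) and a log2 fold change of 0.27 ± 0.08 in *KO* cells. *ZNF622*, a maturation factor of the large ribosomal subunit, had 0.24 ± 0.06 in *WT* and −0.16 ± 0.06 in *KO* cells, a difference of −0.40 ± 0.09 (FDR = 0.003) under the fold limit. *ZNF593*, which acts in export of the subunit, had 0.12 ± 0.12 and −0.12 ± 0.11, with 56.9% of its exon bases overlapping *ZNF593OS*. Between genotypes under 5-FU, *ZNF326* and *ZNF638* had 0.36 ± 0.08 and 0.28 ± 0.07, *ZNF706* had 0.27 ± 0.09, and *ZNF346*, which binds double-stranded RNA, and *ZNF830* had 0.12 ± 0.11 and 0.01 ± 0.09.

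Of 5 members tied to mitosis and genome upkeep, 2 fell after 5-FU in *WT* cells (*ZNF367* and *ZNF827*, 40%, background 9.38%). After 5-FU in *KO* cells 0 were called by edgeR (background 13.3% and 12.0%). *ZNF827* was lower in *KO* cells under DMSO (background 4.97%) and under 5-FU (background 10.6%). *ZNF367* was called higher in *KO* cells under 5-FU (background 7.58%) and for the difference between responses (background 3.42%). *ZNF207* had 199.8, 199 and 202 CPM in *WT* DMSO and 171 and 187 CPM in *WT* 5-FU libraries (−0.20 ± 0.05) and −0.23 ± 0.05 in *KO* cells. *ZNF451*, a SUMO ligase, had 60.6 and 81.8 CPM in *WT* 5-FU and 91.6, 89.5 and 91.5 CPM in *KO* 5-FU libraries, and 0.42 ± 0.08 after 5-FU in *KO* cells (FDR = 0.00032). *ZNF335*, mutated in a form of microcephaly, had 0.29 ± 0.08 in *WT* and 0.26 ± 0.07 in *KO* cells.

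Of 18 chromatin and promoter factors, 2 rose (*ZNF219* and *ZNF516*) and 2 fell (*ZNF704* and *ZNF292*) in *WT* cells (11.1% each way, background 18.5% and 9.38%), and 1 rose (*ZNF219*) and 1 fell (*ZNF704*) in *KO* cells (5.56% each way, background 13.3% and 12.0%). *ZNF143*, which binds and activates many promoters, had 26.3 and 29.1 CPM in *WT* 5-FU and 37.5, 36.4 and 37.4 CPM in *KO* 5-FU libraries. Its log2 fold change was 0.55 ± 0.06 in *KO* and 0.02 ± 0.07 in *WT* cells, a difference of 0.53 ± 0.09 (FDR = 0.00068) under the fold limit. Its paralog *ZNF76* had −0.33 ± 0.07 in *KO* and −0.19 ± 0.08 in *WT* cells. *ZNF644*, a partner of the methyltransferases G9a and GLP, had −0.57 ± 0.07 and −0.51 ± 0.06 in *WT* and *KO* cells, *ZNF652* had −0.45 ± 0.08 and −0.54 ± 0.07, and *ZNF217*, a breast cancer oncogene, −0.35 ± 0.07 and −0.40 ± 0.06. *ZNF687*, *ZNF592* and *ZNF532*, which form a complex with ZMYND8, had −0.03, 0.16 and −0.12 in *WT* and 0.01, 0.21 and 0.06 in *KO* cells. *ZNF148* had −0.38 ± 0.09 and −0.36 ± 0.08 and *ZNF384* 0.02 ± 0.06 and 0.14 ± 0.06. *ZNF292* (−0.63 ± 0.08) lost its call in *WT* cells without *WT* 5-FU replicate 2 (−0.51), and *ZNF24* had −0.34 ± 0.07 there.

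*ZNF274*, which recruits SETDB1 to the 3′ ends of other zinc finger genes, had 7.74, 9.94 and 7.26 CPM in *WT* DMSO, 10.8 and 11.9 CPM in *WT* 5-FU, 9.75, 8.32 and 8.41 CPM in *KO* DMSO and 15.1, 14.01 and 13.01 CPM in *KO* 5-FU libraries. It had log2 fold changes of 0.43 ± 0.13 and 0.58 ± 0.12 after 5-FU (FDR = 0.0086 and 0.0004), under the fold limit. *ZNF410*, an activator of *CHD4*, had 0.02 ± 0.07 in *WT* and 0.29 ± 0.06 in *KO* cells, while *CHD4* had −0.44 ± 0.05 and −0.42 ± 0.05.

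Of 15 KRAB genes known to bind retroelements, 5 reached the level and 0 were called by edgeR in any comparison (background 3.42% to 18.5%), while 1 to 3 of the 5 had an unadjusted p under 0.05. *ZNF587* had 0.14 ± 0.09 and 0.03 ± 0.08 after 5-FU in *WT* and *KO* cells, *ZNF317* −0.03 ± 0.06 and 0.27 ± 0.06, *ZNF268* 0.27 ± 0.11 and −0.03 ± 0.10, *ZNF765* −0.10 ± 0.14 and −0.27 ± 0.13, and *ZNF320* 0.23 ± 0.10 and 0.11 ± 0.09. *ZNF320* had 12.3, 11.9 and 13.3 CPM in *WT* and 17.3, 16.9 and 18.8 CPM in *KO* DMSO libraries (0.47 ± 0.09, FDR = 0.00042).

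The partners of KRAB proteins were examined as a list of 30 corepressor and heterochromatin genes, all of which were tested. *TRIM28*, at 782 ± 11.5 CPM in *WT* DMSO libraries, had −0.05 ± 0.07 after 5-FU in *WT* and 0.01 ± 0.06 in *KO* cells, and −0.24 ± 0.06 between genotypes under DMSO. *SETDB1* had −0.11 ± 0.07 and −0.17 ± 0.06 after 5-FU. After 5-FU, 0 of the list rose and 5 fell in *WT* cells (*CBX3*, *UHRF1*, *SUMO2*, *SUV39H1* and *SUV39H2*, edgeR, background 18.5% and 9.38%). In *KO* cells 1 rose (*MORC3*) and 1 fell (*CBX3*, background 13.3% and 12.0%). The difference between responses was called higher for 4 and lower for 0 (edgeR, background 3.42% and 6.66%): *DNMT1*, the maintenance DNA methyltransferase (0.72 ± 0.09), its partner *UHRF1* (0.62 ± 0.08) and the histone methyltransferase genes *SUV39H1* (0.76 ± 0.13) and *SUV39H2* (0.61 ± 0.13). *DNMT1* had 262 ± 8.43 CPM in *WT* DMSO, 181 ± 25.04 in *WT* 5-FU, 251 ± 6.33 in *KO* DMSO and 297 ± 4.95 in *KO* 5-FU libraries. Between genotypes under DMSO, 1 of the list was higher in *KO* cells (*EHMT1*, 0.59 ± 0.06) and 1 lower (*CHD3*, −0.75 ± 0.05). That is 3.33% each way, beside 9.10% and 4.97% of all genes.

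Other zinc finger symbols were counted beside the members, without a test of the difference. Of the 251 numbered *ZNF* symbols under the level, 121 were tested, and 12 were higher and 10 lower in *KO* cells under DMSO (9.92% and 8.26%, beside 9.10% and 4.97% of all genes), and 23 and 8 under 5-FU (beside 7.58% and 10.6%). After 5-FU, 16 rose and 12 fell in *WT* cells (13.2% and 9.92%, beside 18.5% and 9.38% of all genes) and 16 and 10 in *KO* cells (13.2% and 8.26%, beside 13.3% and 12.0%). Of 39 tested *ZBTB* genes, which pair fingers with a BTB domain, 4 rose and 5 fell in *WT* (10.3% and 12.8%) and 4 and 3 in *KO* cells (10.3% and 7.69%). Among 31 *ZFP*, *ZSCAN* and *ZKSCAN* genes, 2 and 2 were called in *WT* (6.45% each way) and 2 and 4 in *KO* cells (6.45% and 12.9%). Of 85 *ZNF* symbols that end in a letter, 35 were tested, and 5 rose and 3 fell in *WT* (14.3% and 8.57%) and 3 and 2 in *KO* cells (8.57% and 5.71%). The share that fell after 5-FU in *KO* cells was 8.26%, 7.69%, 12.9% and 5.71% in these 4 groups and 2.71% in the members.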

How the data were processed

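Per the study's methods, random-primed libraries of total RNA were sequenced in read pairs, and the authors used CLC Genomics Workbench with GRCh38 and ENSEMBL annotation. The values deposited by the authors are whole read counts per gene symbol (60580 symbols), as the files show, and strand use is not given in the sources used here. Groups came from titles and treatment labels. Members and lists were chosen with earlier results of these data known.

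A gene was tested when some library held 20 counts or more (16123 genes). Upper-quartile scaling (factors 0.955 to 1.05) preceded a quasi-likelihood fit in edgeR 4.0.16 (R 4.3.3, two-sided, 1 mean per group). The biological coefficient of variation was 6.72%. FDR < 0.05 and a fold change above 1.5 defined a call. CPM were computed without these factors. Totals of 22831415 to 39064210 counts set the counting error. The study describes the libraries of a group as biological replicates, with no record of whether these are separate clones. The p-values measure the spread between these libraries, which may not include that between clones. The fit was tested on simulated data.

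Positions and transcripts came from GENCODE release 44 (GRCh38), where 220 members matched. KRAB boxes were found with pyhmmer 0.12.3 (profile of 41 residues from 167 proteins, E < 0.001). Named were, per comparison, the 8 largest rises and the 8 largest falls among called members without overlap of groups, any called in opposite directions after 5-FU, role lists, the 10 highest members, those on 8q24, 2q37 and 9q34, the 3 on each side of the limit and the corepressor list. Members named outside this rule, such as those of clusters or with a *miR-34a* word, were chosen after their values were seen. Alternatives were TMM factors, DESeq2 1.42.0, other filters, no fold limit, a replicate block, RUVg with 1 factor, other member rules and leaving out each library.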

Additional observations from a re-analysis of the deposited data

Results flagged for a closer look

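The 5-FU response of 18 members differed between genotypes in the test of the difference itself (edgeR, FDR < 0.05 and fold above 1.5), which marked them for a closer look. Given as the log2 response of *KO* minus that of *WT* cells, the values were 1.53 for *ZNF367*, 0.90 for *ZNF165*, 0.78 for *ZNF699*, 0.75 for *ZNF273*, 0.74 for *ZNF700*, 0.66 for *ZNF562*, 0.66 for *ZNF45*, 0.65 for *ZNF823*, 0.63 for *ZNF483*, 0.62 for *ZNF440*, 0.62 for *ZNF564*, 0.62 for *ZNF101*, −0.60 for *ZNF428*, −0.72 for *ZNF516*, −0.84 for *ZNF70*, −0.87 for *ZNF117*, −0.95 for *ZNF467* and −1.72 for *ZNF608*. *ZNF367*, *ZNF165* and 5 of the 6 members called lower kept the call with each library left out. *ZNF165* and *ZNF273* had reached the level of the rule only in *WT* DMSO libraries, *ZNF117* and *ZNF70* only in *WT* 5-FU libraries, and *ZNF699*, *ZNF823* and *ZNF564* only in *KO* 5-FU libraries, so that the rule favored these directions. *ZNF428* lost it without *WT* 5-FU replicate 2, *WT* DMSO replicate 1 or *KO* 5-FU replicate 3 (−0.57 to −0.50), and also with TMM factors (−0.541), without a filter (−0.57) and with DESeq2 (−0.522). Without *WT* 5-FU replicate 2, 9 of the 12 members called higher lost it, with values of 0.42 (*ZNF483*) to 0.58 (*ZNF273*), and *ZNF45* lost it without *KO* 5-FU replicate 1 (0.58). *ZNF564* and *ZNF101* were named after their values were seen.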

How the results depend on the processing

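Counts are given as higher and lower, and medians on the log2 scale. Without a minimum fold, the calls were 51 and 34 between genotypes under DMSO, 73 and 58 after 5-FU in *WT* cells, 79 and 51 in *KO* cells, 66 and 38 between genotypes under 5-FU and 32 and 18 for the difference between responses, of which 25 and 4 were KRAB members and 7 and 14 others. With the limit set on the mean over the 4 groups (190 members), they were 6 higher under DMSO, 10 and 6 under 5-FU and 7 higher for the difference (6 KRAB, 1 other). For the 160 members at the level in all 4 groups, a choice added after seeing the data, they were 4 higher, 17 and 7, 13 higher, 4 and 5, and 4 and 3.

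RUVg was estimated on 11123 control genes, and its factor lay 98.2% between treatments, so that it took up the treatment. It gave 0 and 0 calls after 5-FU in *WT* and in *KO* cells, 3 lower under DMSO, 2 higher for the difference, 0 higher and 1 lower among KRAB members, and medians of 0.144, 1.084, 0.968, 0.102 and −0.053 in the order above. RUVg also reversed 26 named values. In *WT* cells after 5-FU they were 1.261 for *ZNF138*, 4.153 for *ZNF165*, −2.239 for *ZNF219*, 2.313 for *ZNF22*, 0.327 for *ZNF273*, −0.125 for *ZNF276*, 2.102 for *ZNF292*, 2.050 for *ZNF45*, −5.720 for *ZNF469*, −0.591 for *ZNF516*, −3.595 for *ZNF517*, 3.826 for *ZNF680*, 2.338 for *ZNF700*, −2.221 for *ZNF707*, −0.521 for *ZNF79*, 0.272 for *ZNF827* and 3.656 for *ZNF92*. In *KO* cells they were 1.049 for *ZNF138*, −2.099 for *ZNF219*, 2.085 for *ZNF22*, 0.183 for *ZNF608*, −2.162 for *ZNF707* and −0.082 for *ZNF79*, and between genotypes under DMSO −0.167 for *ZNF469*, −0.017 for *ZNF579* and 0.057 for *ZNF695*.

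DESeq2 gave medians of 0.009, −0.008, 0.083, 0.121 and 0.079 and TMM factors 0.073 (*KO* after 5-FU), 0.111 (genotypes under 5-FU) and 0.060 (difference), and either gave 4 others called higher for the difference. Without a filter the medians were 0.062 after 5-FU in *KO* cells and 0.031 for the difference.

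With each library left out, members called ranged from 8 to 11 and 5 to 6 under DMSO (median 0.022 to 0.051), 29 to 34 and 12 to 30 in *WT* cells after 5-FU (−0.014 to 0.028), 22 to 27 and 5 to 8 in *KO* cells (0.022 to 0.038), 14 to 25 and 9 to 12 under 5-FU (0.059 to 0.106) and 7 to 22 and 5 to 11 for the difference (−0.036 to 0.061), with 1 to 17 and 0 to 2 KRAB members and 2 to 6 and 5 to 9 others. Where 1 *WT* 5-FU library remained, it was assumed to vary like the other groups.

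Deviations of samples with the same replicate number correlated between −0.091 and 0.078 by titles and between −0.150 and 0.044 by headers, so that they share a number only. With the replicate block by titles, calls were 10 and 5, 29 and 16, 23 and 6, 16 and 9, and 12 and 6, and by the numbers in file headers, added after seeing the data, 10 and 5, 29 and 15, 23 and 6, 17 and 11, and 11 and 6, none moved by over 1.5 times. The causes of these shifts were not tested.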
